A study of Mus musculus with 48 samples.

Results

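The genes examined here encode the subunits of voltage-gated sodium channels, voltage-gated calcium channels and hyperpolarization-activated HCN channels in the mouse preoptic area. They were chosen by symbol: every row of the count table whose symbol begins with Cacn, or with Scn or Hcn followed by a digit, apart from 3 genes that are not analysed here. This gave 41 genes of 23284 in the table: 10 sodium channel alpha subunits, 3 sodium channel beta subunits, 7 high-voltage-activated calcium channel alpha1 subunits, 3 T-type alpha1 subunits, 4 alpha2delta subunits, 4 calcium channel beta subunits, 7 gamma subunits or TARPs, and 3 HCN subunits. The symbol rule itself used no measured value, but the members were chosen with earlier results of these data known.

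All mice with tagged ribosomes came from homozygous GnRH-Cre males and homozygous females that carry the ribosomal protein L10a fused to GFP behind a floxed stop, so that Cre turns on the tagged ribosome in neurons that make gonadotropin-releasing hormone (GnRH) or once did. Punches of the preoptic area were split into a GnRH-enriched immunoprecipitate (IP) and the GnRH-depleted supernatant. The mice were adult females in diestrus or young mice, described as prepubertal females (1 line of the labels' protocols also speaks of tissue from both sexes), and each had been exposed before birth to dihydrotestosterone (DHT, an androgen that is not converted to estrogen) or to vehicle. Each of the 8 groups (IP or supernatant, adult or young, DHT or vehicle) had 6 libraries, except the adult vehicle IP and the adult vehicle supernatant with 5 each. One further IP and its supernatant came from young mice without Cre, which have no tagged ribosomes, and a pair from adults is not analysed here. Replicates are labelled biological, with no word on single mice or pools, and the p-values therefore speak only of the spread among these libraries.

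As background, sodium channel alpha subunits form the pore that opens during the rising phase of the action potential, and beta subunits are single-span proteins that tune the gating, trafficking and adhesion of the alpha subunits. The alpha1 subunits form the calcium pores: the high-voltage-activated ones couple spikes to calcium entry and transmitter release, and the T-type ones open near rest and favour burst firing. Alpha2delta and beta subunits carry the high-voltage-activated pores to the membrane, and most of the gamma family are AMPA receptor auxiliary proteins (TARPs). HCN channels open when the membrane is hyperpolarized and carry the pacemaker current. GnRH neurons fire in bursts, and sodium, calcium and HCN currents have been recorded from them in mice.

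Libraries held 28672556 to 47054029 counts in the IP and 28136000 to 55479451 in the supernatant, which puts most members far above counting noise. Levels are given as CPM, a gene's count scaled to its library's total, and levels of different genes are compared only per kilobase of exon. The exon length of a gene is that of all its annotated exons merged, which can exceed the length of the transcript made. The median level of Gnrh1, the gene of the targeted neurons, was 3940 CPM in adult DHT IP, 6065 CPM in adult vehicle IP, 3195 CPM in young DHT IP and 3214 CPM in young vehicle IP, against 26.7 to 43.0 CPM in the 4 supernatant groups. In the no-Cre pair it was 61.6 CPM in the IP, against 38.2 CPM in the supernatant. A summed set of 11 pan-neuronal markers lay between 7714 and 10114 CPM in every group with tagged ribosomes, with overlapping ranges in the IP and the supernatant, and 10 astrocyte markers summed to 743 to 1561 CPM in the IP, against 1185 to 1771 CPM in the supernatant. IP libraries of 1 group resembled each other less than supernatant libraries did, with median correlations between libraries of 0.912 to 0.947 in the IP and 0.990 to 0.992 in the supernatant, over all tested genes on the log2 scale. A lower level in these bulk samples can come from fewer cells of a type or from less RNA per cell, which cannot be told apart.

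Cacnb3, a cytoplasmic calcium channel beta subunit, had the highest mean level per kilobase of these genes in every IP group, at 28.3, 31.7, 33.3 and 34.0 CPM per kb in adult DHT, adult vehicle, young DHT and young vehicle IP, and at 38.2, 39.0, 37.1 and 37.2 CPM per kb in the matching supernatants. It made up 51.5 to 60.5% of the transcripts of the 4 calcium channel beta subunits in the IP and 50.1 to 52.3% in the supernatant. By merged exon length, Cacna2d3 and Cacna2d2 held most of the alpha2delta transcripts. Cacna2d3 took 45.9 to 53.2% in the IP and 37.9 to 43.7% in the supernatant, and Cacna2d2 took 27.2 to 31.6% in the IP and 43.0 to 48.7% in the supernatant. Merged exons were 12416 bases for Cacna2d1, 7947 for Cacna2d2 and 8720 for Cacna2d3. The transcripts with the longest coding part were 3933, 5542 and 3695 bases. The order of these subunits can therefore change with the length used, and shares by transcript length were not computed. Of the 3 HCN genes Hcn2 had the highest level, at 17.7 to 21.95 CPM per kb in the IP and 33.3 to 43.5 CPM per kb in the supernatant. Among the T-type genes no subunit dominated: in young vehicle IP Cacna1g, Cacna1h and Cacna1i held 39.9, 37.7 and 22.4% of the T-type transcripts.

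The main sodium channel pores of central neurons were all detected. In adult vehicle IP Scn8a (the pore protein Nav1.6 of mature axon initial segments), Scn2a1 (Nav1.2, Scn2a in current annotation), Scn1a (Nav1.1) and Scn3a (Nav1.3) had 4.02, 3.87, 2.88 and 1.27 CPM per kb, and in adult vehicle supernatant 2.84, 4.10, 3.82 and 2.33 CPM per kb. None of these differences between neighbouring genes in the IP was tested, and the SDs overlapped for Scn8a, Scn2a1 and Scn1a, with Scn3a the lowest of the 4. Of the main central sodium channel alpha transcripts (CPM per kb), Scn8a held 26.2% in young vehicle IP and 21.6% in young vehicle supernatant. In the no-Cre pair Scn8a held 28.7% in the IP and 20.4% in the supernatant. Several members were at the edge of detection: Scn4a, the sodium channel of skeletal muscle, had at most 0.213 CPM in any library, and Cacna1f, a retinal calcium channel, at most 0.744 CPM. These last 2 failed the filter on low counts, which left 39 members of 16660 genes for comparing IP with supernatant. Within the IP 38 members of 15890 genes passed (not Scn10a), and within the supernatant 38 of 16286 (not Cacng1).

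**Figure D1:**
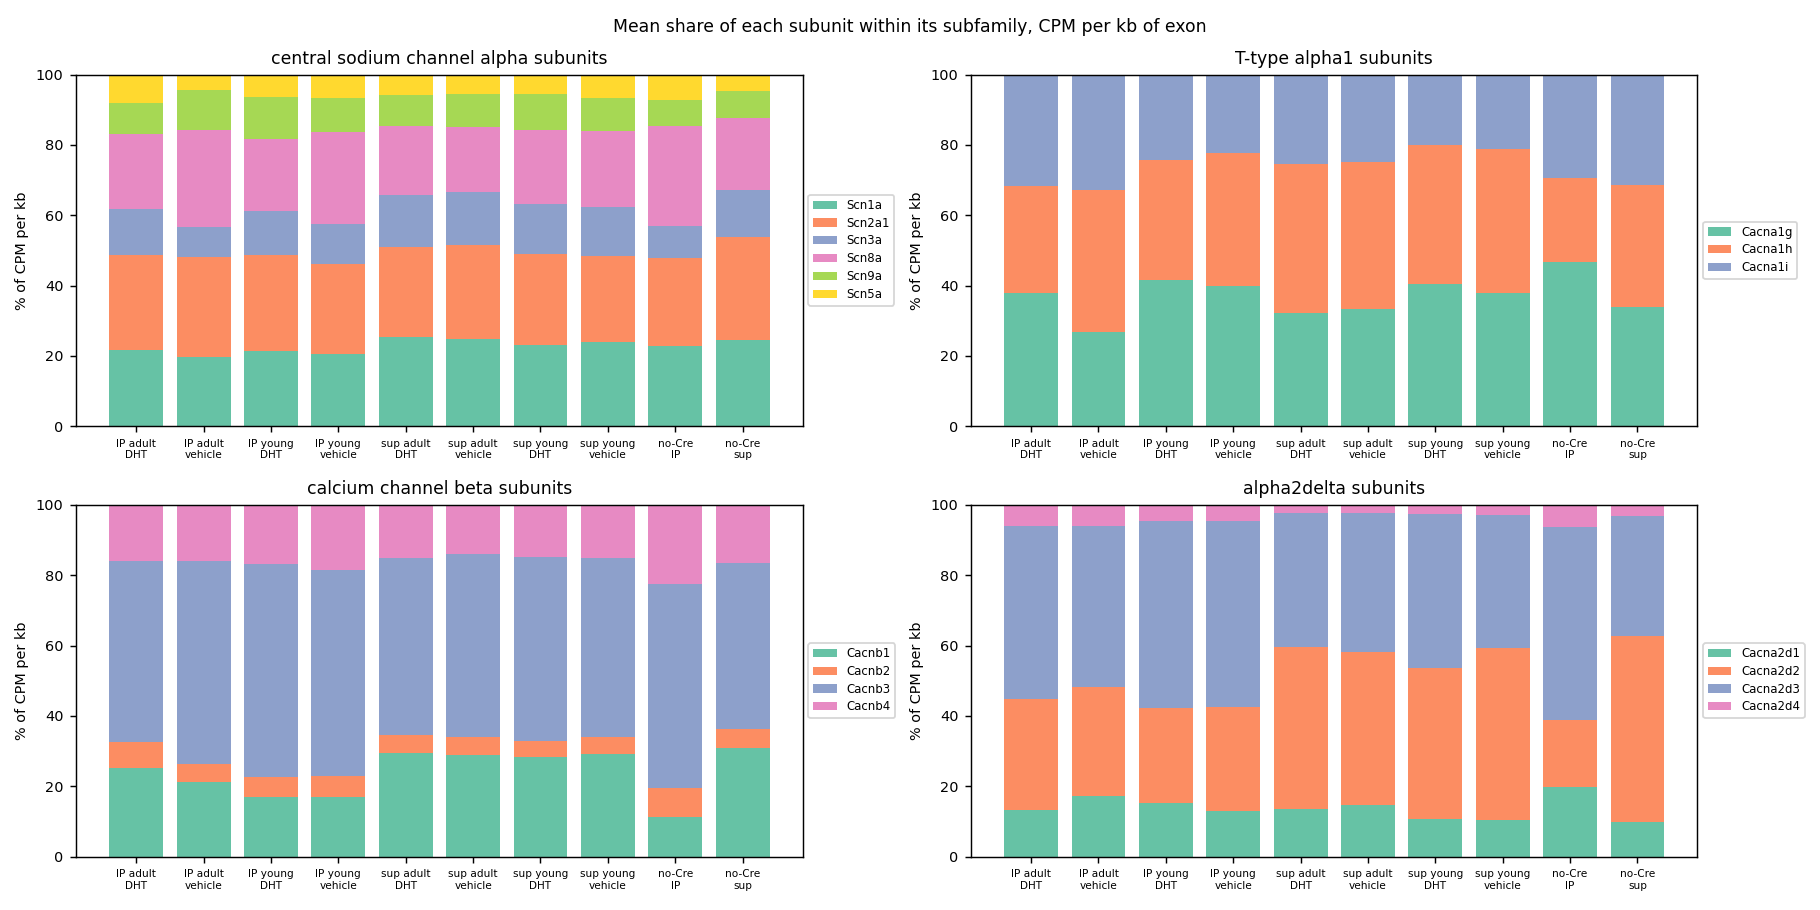
Mean share of each gene (percent of CPM per kilobase of merged exon) within the main central sodium channel alpha, T-type calcium channel alpha1, calcium channel beta and alpha2delta subunits, stacked to 100 for each of the 8 groups and the no-Cre pair. Cacnb3 takes 51.5 to 60.5% of the calcium channel beta transcripts in the IP groups, and Cacna2d2 takes 27.2 to 31.6% of the alpha2delta transcripts there, against 43.0 to 48.7% in the supernatant groups.

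Setting the IP against the supernatant asks which channel genes are over- or under-represented in GnRH neurons relative to the rest of the preoptic area. Averaged over the 4 conditions, 12 of the 39 tested members were lower in the IP and 1 was higher at an adjusted p below 0.05 (edgeR's quasi-likelihood test, Benjamini-Hochberg adjustment over all tested genes), where 21.7% of all tested genes were lower and 24.4% were higher. The median log2 difference of the members was −0.21, against −0.00 over all genes (a difference of −0.0032). With a term for shared replicate numbers (a replicate block, given further on), more members were lower and the call higher in the IP was lost. That fit moved the median over all genes to −0.21. By family, 1 of 3 sodium channel beta subunits, 2 of 4 calcium channel beta subunits, 1 of 4 alpha2delta subunits and 2 of 7 gamma or TARP genes were lower, together with 2 of 3 HCN subunits. Of the pores, 3 of 9 sodium alpha subunits, 1 of 6 high-voltage-activated alpha1 subunits and none of the 3 T-type alpha1 subunits fell. Of 6 immature neuron markers 3 were lower in the IP and none higher, and of 7 oligodendrocyte precursor markers 2 were lower and none higher (same test). Of 10 astrocyte markers 7 were lower, and of 9 mature oligodendrocyte markers 5, with none higher in either list. Of 8 microglia markers 2 were lower and 1 higher, and of 8 endothelial and mural markers 1 was lower and none higher. The 11 pan-neuronal markers split into 4 lower and 4 higher. The immature neuron markers summed to 247 to 359 CPM in adult IP, against 492 to 636 CPM in adult supernatant, and to 467 to 600 CPM in young IP, against 934 to 1172 CPM in young supernatant. The oligodendrocyte precursor markers summed to 109 to 255 CPM in adult IP, against 267 to 393 CPM in adult supernatant, and to 305 to 514 CPM in young IP, against 501 to 711 CPM in young supernatant, where the ranges overlapped. In the no-Cre pair the immature neuron markers summed to 533 CPM in the IP, against 935 CPM in the supernatant. The part of these in the members' differences was not tested.

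Scn2b, the sodium channel beta2 subunit that binds alpha subunits through a disulfide bond, was the member with the smallest p. Its level was 13.4 to 27.2 CPM (median 16.5) in adult DHT IP, against 78.5 to 102 CPM (median 85.9) in adult DHT supernatant. The adult vehicle IP libraries had 10.8, 19.1, 19.2, 13.6 and 20.2 CPM, against 75.8, 90.2, 81.1, 97.9 and 84.9 CPM in adult vehicle supernatant. In young mice the range was 13.4 to 34.5 CPM in DHT IP, against 60.2 to 113 CPM in DHT supernatant, and 18.2 to 37.1 CPM in vehicle IP, against 67.2 to 115 CPM in vehicle supernatant. Every one of the 23 IP libraries lay below every one of the 23 supernatant libraries, which held for no other member and for 1.48% of all tested genes. The log2 difference was −1.99 ± 0.11 (SE; edgeR's quasi-likelihood test, adjusted p = 2.41e-19), 3.97-fold lower in the IP. Scn2b lies on chromosome 9 at 45117782 to 45130070 (plus strand, mm10), and its mean level per kilobase was 3.56 to 5.34 CPM per kb in the IP groups and 17.1 to 18.8 CPM per kb in the supernatant groups. The no-Cre pair, with no tagged ribosomes, had 28.5 CPM in its IP against 83.7 CPM in its supernatant, at a ratio of 0.340 (95% interval 0.315 to 0.366, counting error only).

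Hcn2, Cacnb1, Cacna2d2 and Cacna1b were lower in the IP in all 4 conditions. Hcn2 is the HCN subunit of the widest distribution in brain; its mean level was 70.1 ± 21.1 CPM in adult DHT IP and 139 ± 11.6 CPM in adult DHT supernatant (SD, n = 6 each), and 56.4 ± 6.86 CPM in young vehicle IP and 107 ± 14.3 CPM in young vehicle supernatant (SD, n = 6 each). Over the 4 conditions it was 1.89-fold lower in the IP (log2 difference −0.92 ± 0.08, SE; edgeR adjusted p = 2.72e-13). Cacnb1, a calcium channel beta subunit first known from skeletal muscle, was 1.88-fold lower (−0.91 ± 0.08, edgeR adjusted p = 1.68e-12), with group means of 42.3 to 61.3 CPM in the IP, against 90.6 to 102 CPM in the supernatant. Cacna2d2, an alpha2delta subunit, was 2.29-fold lower (−1.19 ± 0.12, edgeR adjusted p = 3e-11), and its IP and supernatant libraries did not overlap in any of the 4 conditions. Of all tested genes 10.6, 16.7, 14.4 and 15.5% did not overlap in adult DHT, adult vehicle, young DHT and young vehicle mice. On the compared groups alone the Cacna2d2 call in adult DHT mice was lost. Cacna1b, the N-type pore Cav2.2 that drives transmitter release at many synapses, was also 2.29-fold lower (−1.20 ± 0.19, edgeR adjusted p = 5.75e-07). Its adult vehicle IP libraries had 4.93, 11.3, 15.3, 5.41 and 18.0 CPM, all below the 26.1, 23.8, 26.9, 29.8 and 20.4 CPM of adult vehicle supernatant. The Cacna1b call in adult DHT mice was lost without any 1 of 8 libraries (supernatant 1, 2, 4, 5 and 6, IP 1, 3 and 4), at adjusted p up to 0.12, and in adult vehicle mice without any 1 of 4 (supernatant 1 and 4, IP 1 and 4), at adjusted p up to 0.09. Both adult calls were also lost in limma-voom (0.481 and 0.116) and on the compared groups alone (0.119 and 0.0569). In young mice the call held without any 1 library.

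The no-Cre IP was also low for part of these members. Of the 12 members lower in the IP, 10 had a no-Cre IP to supernatant ratio below 1, with a median log2 ratio of −0.74 (0.5 CPM added to each level), and for 5 of them the no-Cre IP was below 0.5 of its supernatant, as it was for 10.1% of all tested genes. Of the 26 members that passed in neither direction, 10 had a ratio below 1 and the median was 0.25. Over all tested genes 49.7% had a ratio below 1. For Hcn2 the no-Cre IP had 31.7 CPM and its supernatant 79.0 CPM, for Cacnb1 29.8 and 103 CPM, for Cacna2d2 11.4 and 40.5 CPM, and for Cacna1b 2.62 and 9.07 CPM. Scn2b, Hcn2, Cacnb1, Cacna2d2 and Cacna1b are thus all at a ratio of 0.281 to 0.401 in the pair without tagged ribosomes, and how far this part of the IP sets the difference in mice with tagged ribosomes was not tested. Cacng4 had a ratio of 0.639. Cacnb3 and Cacng7 had ratios of 0.989 and 0.983 in the no-Cre pair, and Hcn3 had 1.27, so for these the no-Cre IP was close to its supernatant or above it. Scn10a had 6 counts in the no-Cre IP and 3 in its supernatant. The pair is 1 library each, and these ratios have no replicate check.

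**Figure D2:**
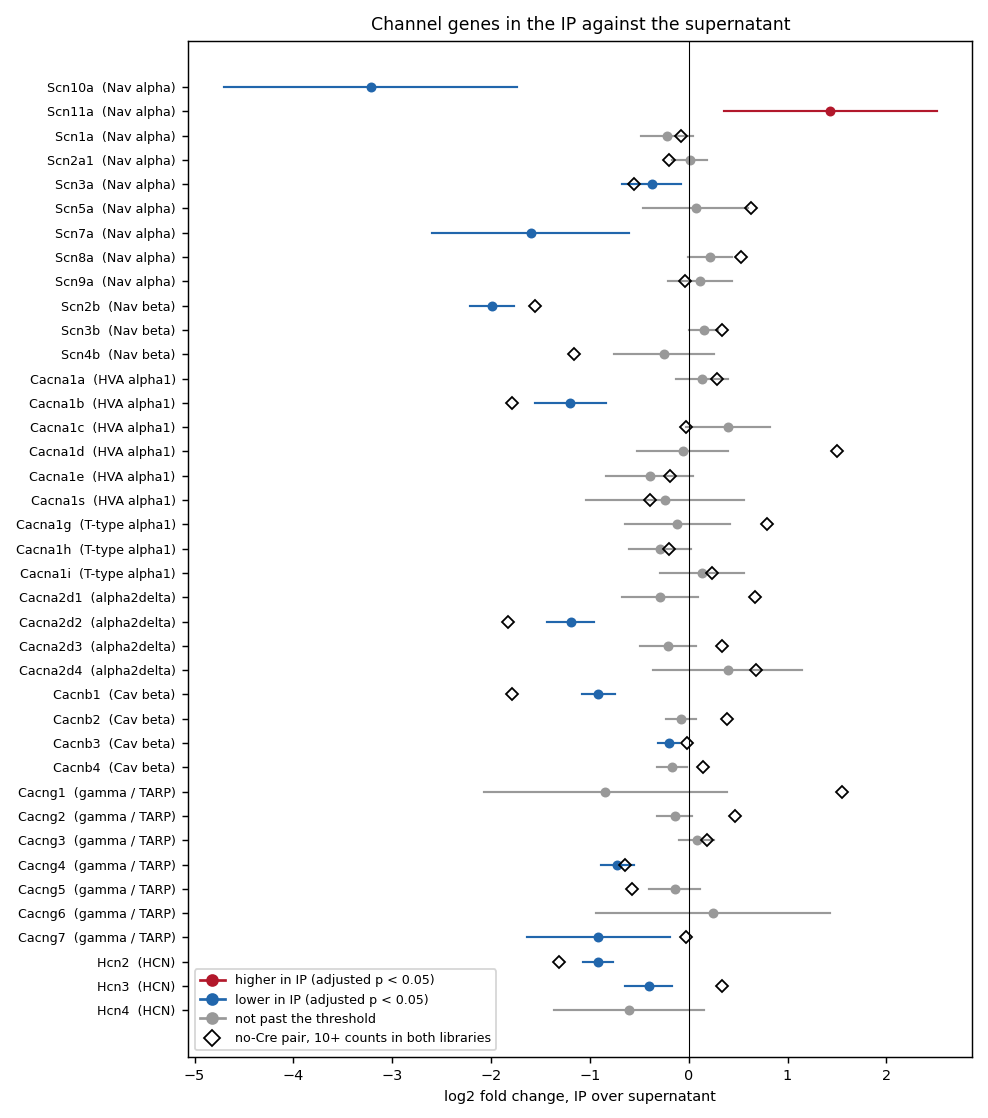
IP over supernatant log2 fold change (mean of the 4 conditions) of the 39 tested members with 95% intervals, coloured by call, and the log2 ratio of the no-Cre pair as open diamonds where both libraries had at least 10 counts. Scn2b stands at −1.99 with a no-Cre ratio of −1.56, and Scn11a is the 1 member called higher.

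The sequences just upstream of the start sites of 3 members that the results turn on are shown for their unlike base content: Scn2b, lower in the IP in each condition, Hcn2, lower in the IP and the highest of the 3 HCN genes, and Cacna2d1, which was higher in adult supernatant. Each is the 250 bases before the RefSeq start (GRCm38.p6, plus strand, 5′ to 3′), at chr9:45117626-45117875, chr10:79716384-79716633 and chr5:15934441-15934690 in that order. Capitals mark GC boxes, searched as GGGCGG and its reverse complement CCGCCC.
Scn2b: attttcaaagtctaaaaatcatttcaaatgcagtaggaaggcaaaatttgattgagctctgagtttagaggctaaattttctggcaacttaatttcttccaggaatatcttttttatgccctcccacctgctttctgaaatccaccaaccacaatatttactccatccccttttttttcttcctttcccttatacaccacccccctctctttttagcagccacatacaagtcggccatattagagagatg
Hcn2: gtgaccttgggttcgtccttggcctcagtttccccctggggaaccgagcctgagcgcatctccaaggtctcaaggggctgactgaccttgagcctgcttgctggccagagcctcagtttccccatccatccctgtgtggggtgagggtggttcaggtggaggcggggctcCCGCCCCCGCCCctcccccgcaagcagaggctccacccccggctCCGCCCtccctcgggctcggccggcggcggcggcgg
Cacna2d1: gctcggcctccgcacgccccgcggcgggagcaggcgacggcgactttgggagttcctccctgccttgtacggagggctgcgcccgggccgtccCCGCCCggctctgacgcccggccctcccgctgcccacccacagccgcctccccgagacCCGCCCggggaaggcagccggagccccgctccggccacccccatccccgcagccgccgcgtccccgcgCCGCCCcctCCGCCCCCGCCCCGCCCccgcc
The Scn2b window is 38.4% G or C and has no GC box, whereas the Hcn2 window is 70.4% G or C with 3 and the Cacna2d1 window 82.4% with 6. RefSeq promoters matched 31 of the 41 members, with 42 start sites, and 40.5% of these windows hold a GC box, against 32.7% of all 32851 mouse promoter windows of the same length. A TATA box, searched as TATAAA and TTTATA, was in 2 of the 42 windows (4.76%), against 12.4% of all. GENCODE begins Scn2b inside the window shown, ahead of the RefSeq start. A match describes letters in the window and no bound site.

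For Cacng4, the TARP gamma-4, the IP was lowest against the supernatant in adult DHT mice. Its level was 8.78 to 19.7 CPM (median 12.97) in adult DHT IP, against 31.05 to 38.5 CPM (median 33.5) in adult DHT supernatant, and no library overlapped, as for 10.6% of all tested genes. The adult vehicle IP libraries had 14.3, 32.3, 22.2, 19.3 and 17.6 CPM, against 31.2, 37.04, 37.1, 32.3 and 35.4 CPM in adult vehicle supernatant, and here 1 IP library reached into the supernatant range. In young mice the levels were 21.1 to 37.3 CPM in DHT IP, against 32.3 to 46.5 CPM in DHT supernatant, and 18.9 to 29.1 CPM in vehicle IP, against 29.1 to 40.2 CPM in vehicle supernatant. Cacng4 was lower in all 4 conditions, by 1.26 on the log2 scale in adult DHT mice (SE 0.17, edgeR adjusted p = 2.36e-07), 0.60 in adult vehicle mice, 0.51 in young DHT mice and 0.52 in young vehicle mice. In young mice the call was lost without DHT IP library 4, DHT supernatant library 4 or vehicle IP library 2, at adjusted p of 0.062, 0.0562 and 0.0549, and the adult vehicle call was lost on the compared groups alone (0.0872).

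Within single conditions no member was higher in the IP, where 11.6, 12.8, 10.7 and 11.3% of all genes were in adult DHT, adult vehicle, young DHT and young vehicle mice. In adult DHT mice 8 of the 39 were lower, where 9.83% of all genes were, and the median member difference was 0.04, as was that of all genes. Fitted on the compared groups alone 4 members were lower in adult DHT mice, Scn2b, Hcn2, Cacnb1 and Cacng4, where 868 of 15136 tested genes were lower. In adult vehicle mice 9 were lower (11.2% of all genes), and the median was −0.40, against 0.04 over all genes. In young DHT mice 7 were lower (9.21%), with a median of −0.23 against 0.03, and in young vehicle mice 6 were lower (10.5%), with −0.06 against 0.05. Scn2b, Hcn2, Cacnb1, Cacna2d2, Cacna1b and Cacng4 made up the 6 of young vehicle mice. In young DHT mice the seventh was Cacna1e, the R-type pore Cav2.3, with 0.166 to 4.92 CPM (median 1.82) in the IP, against 5.05 to 9.27 CPM in the supernatant. These ranges did not overlap, as for 14.4% of all tested genes, and the log2 difference was −1.76 ± 0.46 (edgeR adjusted p = 0.00391).

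The other members that passed over the 4 conditions had smaller differences or fewer counts. Cacnb3 was lower by 0.20 on the log2 scale (SE 0.05, edgeR adjusted p = 0.00107), with group means of 113 to 136 CPM in the IP, against 149 to 157 CPM in the supernatant. Hcn3, a slowly activating HCN subunit, was lower by 0.41 (SE 0.12, edgeR adjusted p = 0.00567), with group means of 14.1 to 26.5 CPM in the IP, against 26.3 to 29.5 CPM in the supernatant. Scn3a was lower by 0.38 (SE 0.15, edgeR adjusted p = 0.0409), with group means of 15.8 to 26.7 CPM in the IP, against 20.8 to 29.1 CPM in the supernatant, a call that was lost without any 1 of 16 libraries. Cacng7, a TARP, was lower by 0.92 (SE 0.37, edgeR adjusted p = 0.0383), with group means of 0.356 to 0.854 CPM in the IP, against 1.04 to 1.28 CPM in the supernatant. Scn10a and Scn7a complete the 12 by the fit over the 4 conditions, on low counts that did not go the same way in every condition and are given further on.

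Many pores passed in neither direction between the 2 fractions. Scn8a averaged 55.5 ± 25.8 CPM in adult DHT IP and 46.7 ± 3.88 CPM in adult DHT supernatant (SD, n = 6 each), and over the 4 conditions its log2 difference was 0.22 with a 95% interval of −0.00 to 0.44 (−0.00351 at the low end). For Scn2a1 it was 0.01 (−0.16 to 0.19) and for Cacna1a, the P/Q-type pore Cav2.1, 0.13 (−0.13 to 0.40). For Scn1a it was −0.22 (−0.49 to 0.04) and for Scn9a, the pore Nav1.7, 0.11 (−0.21 to 0.43). The T-type genes stood at −0.11 for Cacna1g (−0.64 to 0.41), −0.29 for Cacna1h (−0.61 to 0.03) and 0.13 for Cacna1i (−0.29 to 0.56), and Hcn4 at −0.60 (−1.36 to 0.16). None of these passed the test (edgeR adjusted p of 0.112 or more), and the intervals leave differences of up to those sizes undetected. Leaving out single libraries, Cacna1h passed in 2 of 46 fits (edgeR adjusted p down to 0.0255) and Scn1a in 1 of 46 (0.0407). Limma-voom and the replicate block each called 3 of the main sodium, T-type and HCN genes that edgeR did not, in edgeR's direction. Both fits also moved the median over all genes, to −0.22 and −0.21. The direction of the small Scn2a1 difference changed with the scaling, to −0.0407 with library totals and −0.00135 in DESeq2.

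The 3 sodium channel genes known best from peripheral sensory neurons or glia had few counts. Scn11a (Nav1.9) was the 1 member called higher in the IP over the 4 conditions, by 1.43 ± 0.55 on the log2 scale (edgeR adjusted p = 0.0297), but its IP libraries had 0 to 8.04 CPM, with supernatant libraries at 0.172 to 1.23 CPM inside that range. The call was lost without any of 4 libraries: supernatant adult vehicle 3, IP adult vehicle 1, IP adult DHT 6 or IP young vehicle 5, at adjusted p of 0.0516, 0.0674, 0.0554 and 0.0656, and in limma-voom the difference was −0.22. With the replicate block the Scn11a call was also lost. Scn10a (Nav1.8) was at 0 counts in all 11 adult IP libraries. Its adult supernatants held 33 counts in 6 DHT libraries and 38 in 5 vehicle libraries. By counting error alone, a floor of 3 counts over the group puts it at least 10.7-fold lower in adult DHT IP and at least 10.6-fold lower in adult vehicle IP. This bound leaves out the spread among IP libraries, which in young mice had 0 counts beside single ones with 11 or 65. In young mice it had 11 counts in the DHT IP, all in 1 library, against 62 in the DHT supernatant, and 87 in the vehicle IP, of which 65 were in 1 library and 0 in each of 3, against 46 in the vehicle supernatant. The young vehicle ratio was 1.87 (95% interval 1.29 to 2.73, counting error only), so the direction of the pooled counts was not shared by the 4 conditions, and the call over them was lost in limma-voom (0.0933). With Scn10a at that bound the median of the members stayed at 0.04 in adult DHT mice and −0.40 in adult vehicle mice. Scn7a (Nax, a sodium sensor of glia) had 0, 1, 0, 1 and 1 counts in the adult vehicle IP libraries, 3 in all, against 320 in the 5 adult vehicle supernatants, a ratio of 0.0112 (95% interval 0.00229 to 0.0329, counting error only). In adult DHT mice it had 138 counts in the IP, of which 78 were in 1 library and 0 in each of 2, against 221 in the supernatant. In young mice it had 142 counts in the DHT IP, against 280 in the DHT supernatant, and 394 in the vehicle IP, against 191 in the vehicle supernatant, a ratio of 2.04 in vehicle mice (95% interval 1.71 to 2.43, counting error only). By pooled count Scn7a was thus higher in young vehicle IP, where single libraries held 5 to 143 counts, against 7 to 80 in the supernatant. The interval leaves out that spread. Among single conditions Scn7a passed only in adult vehicle mice (edgeR adjusted p = 0.000796, against 0.818, 0.584 and 0.514 in adult DHT, young DHT and young vehicle mice).

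The prenatal DHT comparisons gave no call among the members. None of the 38 tested members passed in young IP, adult IP, young supernatant or adult supernatant, where 0%, 0.00629%, 0% and 0% of all genes did (edgeR's quasi-likelihood test). At an unadjusted p below 0.05 there were 0, 4, 2 and 2 members, against 1.5%, 8.29%, 4.59% and 2.08% of all genes, and DESeq2 called no member. Medians of the members' log2 differences were −0.05, 0.17, 0.10 and −0.03, against −0.02, 0.00, −0.01 and −0.00 over all genes (0.00128 in adult IP and −0.000107 in adult supernatant). DHT and vehicle libraries overlapped for every tested member in adult IP, where 0.428% of all genes did not overlap.

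**Figure D3:**
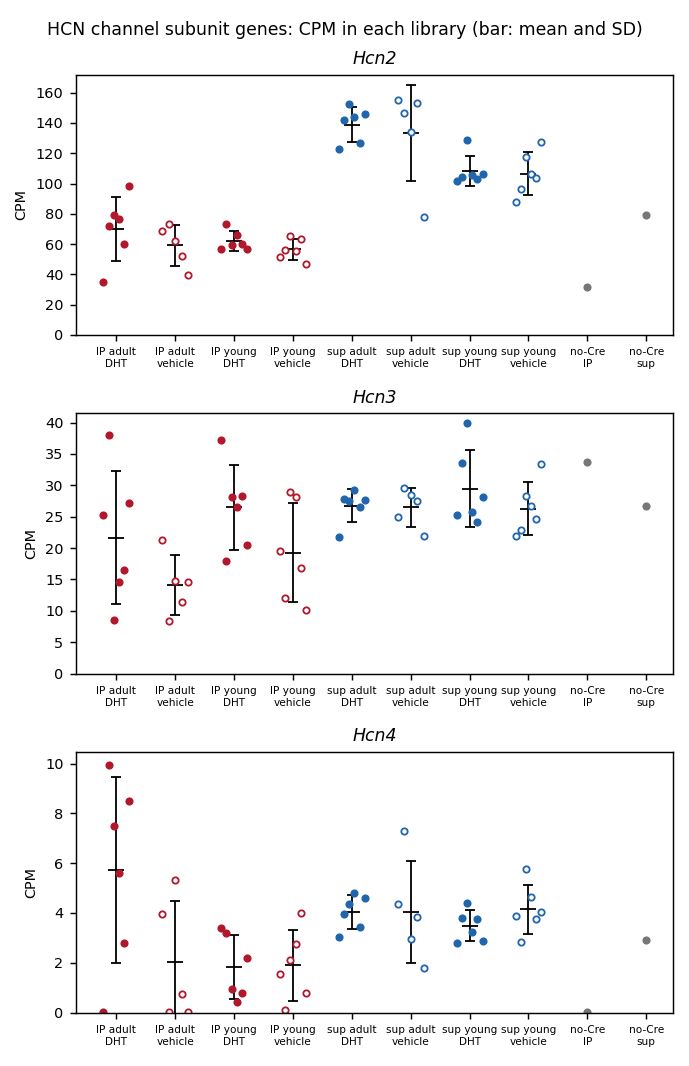
CPM of Hcn2, Hcn3 and Hcn4 in each library of the 8 groups and the no-Cre pair (red IP, blue supernatant, grey no-Cre, filled DHT, open vehicle), with group mean and SD as bars. Hcn2 lies between 35.1 and 98.1 CPM in adult DHT IP and between 123 and 153 CPM in adult DHT supernatant.

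The 3 HCN subunits did not separate by treatment in adult IP. Hcn2 had 35.1 to 98.1 CPM (median 74.2) with DHT and 68.7, 73.4, 61.8, 52.0 and 39.6 CPM with vehicle, and Hcn3 averaged 21.7 ± 10.6 CPM with DHT and 14.1 ± 4.80 CPM with vehicle (SD, n = 6 and 5). Hcn4, the main pacemaker subunit of the heart, averaged 5.72 ± 3.73 CPM with DHT and 2.01 ± 2.46 CPM with vehicle, and 1 DHT library and 2 vehicle libraries had 1 count each. Among the 4 members with an unadjusted p below 0.05 in adult IP, Cacna1a had 11.9 to 33.5 CPM (median 23.8) with DHT and 2.44, 23.1, 11.9, 7.26 and 13.3 CPM with vehicle. Cacng4 had 8.78 to 19.7 CPM (median 12.97) with DHT and 14.3, 32.3, 22.2, 19.3 and 17.6 CPM with vehicle. Cacnb2, a calcium channel beta subunit, had 43.1 to 62.4 CPM (median 52.0) with DHT and 25.6 to 52.9 CPM (median 34.4) with vehicle. All of these ranges overlapped, the log2 differences were 1.02 ± 0.39, −0.67 ± 0.25 and 0.53 ± 0.22, and none passed after adjustment (edgeR adjusted p = 0.431, 0.435 and 0.484). The fourth was Scn7a, on the few counts given above. Marker levels in the adult IP groups are given as values. Mature oligodendrocyte markers summed to 1283 to 4191 CPM in adult DHT IP and 1628 to 2369 CPM in adult vehicle IP. Endothelial and mural markers summed to 1.01 to 135 CPM and 5.28 to 22.8 CPM in the same order. Gnrh1 ran from 664 to 13176 CPM in adult DHT IP and from 1951 to 16067 CPM in adult vehicle IP. The DHT and vehicle ranges overlapped for each. The part of these markers in the differences of the members was not tested.

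Comparing adults with young mice asks how the channel genes change with maturation. In the IP of DHT mice 1 of 38 members changed, where 7.12% of all genes did, and in the IP of vehicle mice none did, where 3.83% of all genes did (edgeR's quasi-likelihood test). At an unadjusted p below 0.05 there were 2 members in vehicle IP, both with few counts, Scn7a and Cacng1, against 17.4% of all genes, and DESeq2 and the compared groups alone called Scn7a, and limma-voom Cacng3. In the supernatant of DHT mice 3 members were higher in adults (9.47% of all genes) and none was lower (10.5%), and in the supernatant of vehicle mice 5 were higher (10.1%) and none was lower (10.2%). Adult and young libraries did not overlap for 1 member in DHT IP (4.71% of all genes), 1 in vehicle IP (4.73%), 1 in DHT supernatant (8.47%) and 1 in vehicle supernatant (10.8%). The median log2 difference of the members was 0.39 in DHT IP, 0.11 in vehicle IP, 0.07 in DHT supernatant and 0.11 in vehicle supernatant, against 0.03, 0.01, 0.01 and 0.01 over all genes. Within each fraction, the comparisons in DHT and in vehicle mice share no library.

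Cacng4 was the member that changed with age in the IP of DHT mice. It had 8.78 to 19.7 CPM in adults and 21.1 to 37.3 CPM (median 26.0) in young mice, with no overlap, and fell by 0.97 on the log2 scale (SE 0.24, edgeR adjusted p = 0.0149). The call held without any 1 library. In vehicle IP it had 14.3 to 32.3 CPM in adults and 18.9 to 29.1 CPM in young mice, which overlapped, and the difference was −0.18 ± 0.25 (edgeR adjusted p = 0.818). In the supernatant the difference was −0.21 in DHT mice and −0.07 in vehicle mice (−0.0671), and neither passed. Non-neuronal and immature markers also differed by age: mature oligodendrocyte markers summed to 1283 to 4191 CPM in adult IP and 3671 to 5722 CPM in young IP, and 6 immature neuron markers to 247 to 359 CPM in adult IP and 467 to 600 CPM in young IP. The part of these in the age differences was not tested.

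**Figure D4:**
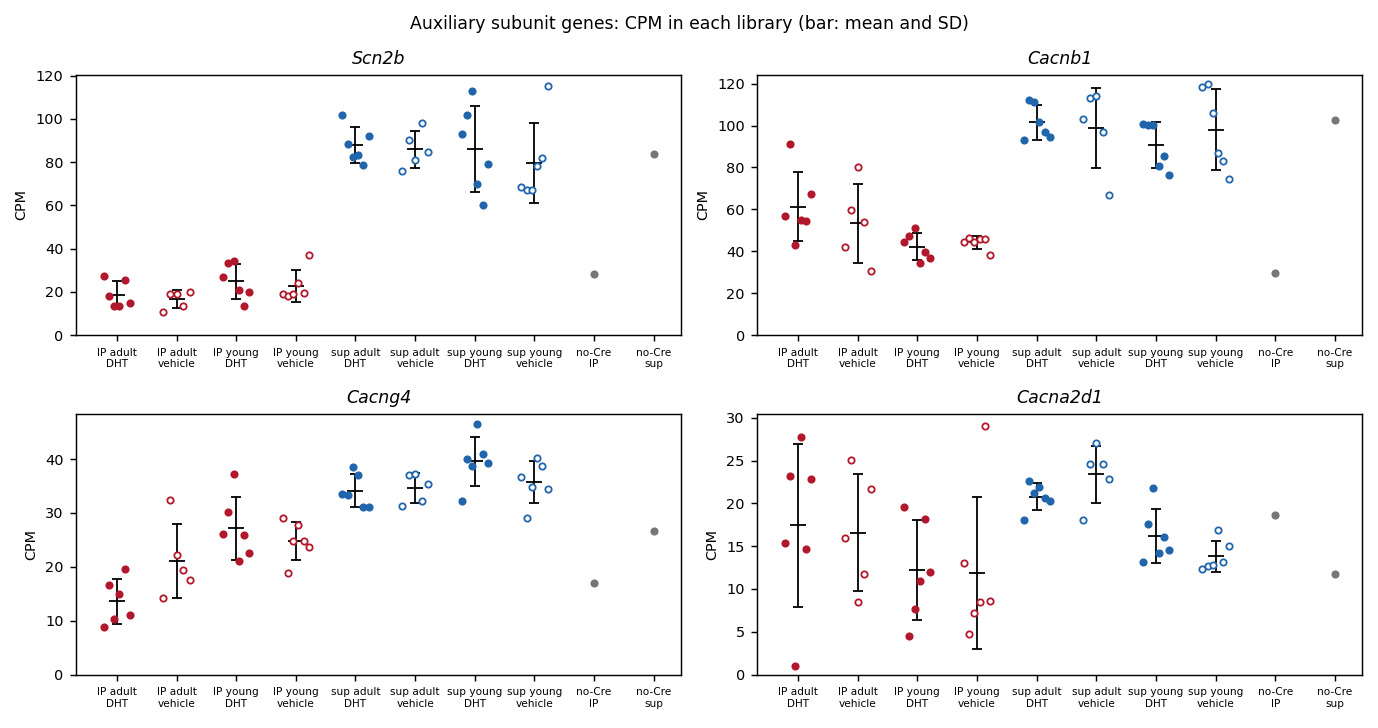
CPM of Scn2b, Cacnb1, Cacng4 and Cacna2d1 in each library of the 8 groups and the no-Cre pair (red IP, blue supernatant, grey no-Cre, filled DHT, open vehicle), with group mean and SD as bars. Cacng4 in adult DHT IP lies between 8.78 and 19.7 CPM, below the 21.1 to 37.3 CPM of young DHT IP, and Scn2b in every IP library lies below every supernatant library.

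In the supernatant the members that changed with age all rose. In vehicle mice Cacna2d1, the alpha2delta1 subunit that gabapentin binds, had 18.1, 24.6, 27.0, 24.6 and 22.8 CPM in adults, against 12.3 to 16.9 CPM (median 12.9) in young mice. These ranges did not overlap, and the log2 difference was 0.74 ± 0.12 (edgeR adjusted p = 0.000142). In DHT mice Cacna2d1 had 18.1 to 22.6 CPM (median 20.9) in adults and 13.1 to 21.9 CPM (median 15.3) in young mice, and rose by 0.35 ± 0.12 (edgeR adjusted p = 0.0339), with overlapping ranges. It was the 1 member called with both treatments.

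The others in vehicle supernatant were 3 sodium channel alpha subunits and a beta subunit. Scn2a1 averaged 52.2 ± 5.55 CPM in adults and 37.2 ± 4.62 CPM in young mice (log2 difference 0.46, edgeR adjusted p = 0.00712). Scn3a, the alpha subunit known for its high embryonic expression in rodents, averaged 29.1 ± 3.52 CPM in adults and 20.8 ± 2.75 CPM in young mice (0.45, edgeR adjusted p = 0.0085). Scn3b and Scn1a rose by 0.33 and 0.37 (edgeR adjusted p = 0.0129 and 0.0316; n = 5 adult and 6 young libraries throughout). For these 4 genes the adult and young ranges overlapped.

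In DHT supernatant the T-type gene Cacna1i (Cav3.3) and Hcn2 joined Cacna2d1. Cacna1i averaged 8.18 ± 1.45 CPM in adults and 5.68 ± 0.536 CPM in young mice (SD, n = 6 each) and rose by 0.53 ± 0.17 (edgeR adjusted p = 0.0306), with no overlap. Hcn2 had 123 to 153 CPM (median 143) in adults and 102 to 129 CPM (median 105) in young mice and rose by 0.36 ± 0.12 (edgeR adjusted p = 0.0397). Each of these 3 calls was lost with the term for the last 10 sample numbers and without some single libraries: adult 2, 3 and 4 and young 1, 4, 5 and 6 for Cacna2d1, adult 2 and 3 and young 2 and 4 for Cacna1i, and adult 2, 3, 4 and 6 and young 1, 2, 4, 5 and 6 for Hcn2. Leaving out supernatant adult DHT 2, adult DHT 3 or young DHT 4 left no member called, leaving out adult DHT 4, young DHT 2, young DHT 5 or young DHT 6 left 1, and leaving out young DHT 3 gave 6. In the vehicle supernatant Scn1a was the least stable, lost without any 1 of 6 of 11 libraries (young vehicle 1, 2, 4 and 5, adult vehicle 4 and 5), at adjusted p up to 0.0787. Mature oligodendrocyte markers summed to 2141 to 4685 CPM in adult supernatant and 4620 to 7005 CPM in young supernatant, and their part in these rises was not tested.

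**Figure D5:**
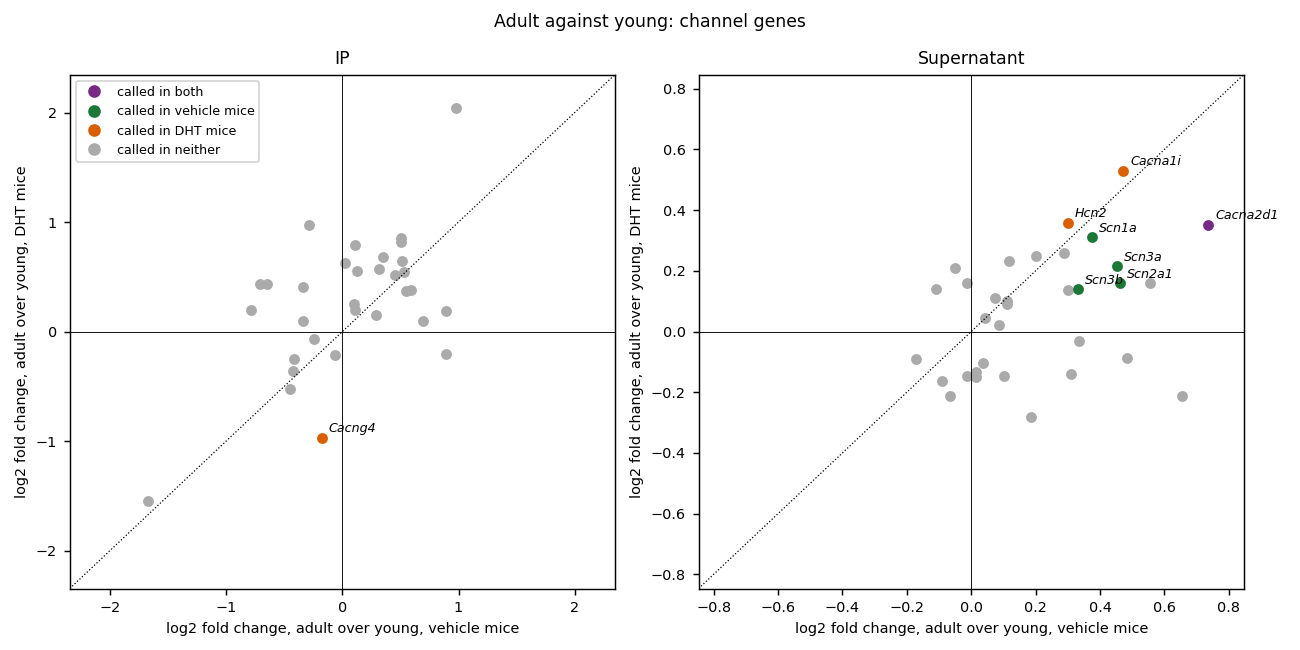
Adult over young log2 fold change of the members in vehicle mice (x axis) and DHT mice (y axis), in the IP and the supernatant, for members above a summed mean of 4 CPM in the vehicle groups and coloured by the treatments in which they were called. Cacng4 is called in DHT mice in the IP, at −0.97 in DHT mice and −0.18 in vehicle mice, and Cacna2d1 in both in the supernatant, at 0.35 in DHT mice and 0.74 in vehicle mice.

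Whether the age difference was unlike in the 2 fractions was tested directly as an interaction. In DHT mice no member passed, where 0.882% of all genes did (edgeR's quasi-likelihood test), 3 members had an unadjusted p below 0.05, against 11.4% of all genes, and DESeq2 called 1, and 2.14% of all genes. Cacng4 stood at −0.76 ± 0.23 in DHT mice (edgeR adjusted p = 0.116). In vehicle mice 1 passed, where 1.04% of all genes did. It was Scn7a, at −7.18 ± 1.62 (edgeR adjusted p = 0.016), a fitted value that rests on 3 counts in the adult vehicle IP and gives no bound. The call was lost in limma-voom (0.135).

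For DHT by age, no member passed in the IP or the supernatant, and no gene of all did (0% of 15890 and 0% of 16286, edgeR's quasi-likelihood test). At an unadjusted p below 0.05 there were 5 members in the IP and 5 in the supernatant, against 5.39% and 5.45% of all genes, and DESeq2 called no member in either.

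Genes of proteins that bind or regulate these channels were taken from a list of 27, of which 26 were in the table. Between IP and supernatant over the 4 conditions 9 of the 26 were higher and 7 lower, where 24.4% of all genes were higher and 21.7% lower, with a median of −0.04, against −0.0032 over all genes. Fgf13, an intracellular sodium channel partner, was higher in the IP by 0.72 ± 0.08 (edgeR adjusted p = 1.12e-09). Pex5l, which encodes the HCN partner TRIP8b, was lower by 0.96 (SE 0.10), Rimbp2, which tethers calcium channels at the active zone, by 1.47, and Calm3, a calmodulin gene, by 0.57 (edgeR adjusted p = 8.52e-11, 1.43e-08 and 7.53e-08). None of the 26 passed for DHT (edgeR's quasi-likelihood test, and none with an unadjusted p below 0.05 in adult supernatant), and 4 in adult IP, 1 in young IP and 1 in young supernatant had an unadjusted p below 0.05, where 8.29%, 1.5% and 4.59% of all genes did. With age 2 rose in DHT IP and 1 in vehicle IP and none fell, where 7.12% and 3.83% of all genes changed in either direction. In the supernatant 6 rose and 1 fell in DHT mice, where 9.47% of all genes rose and 10.5% fell, and 3 rose and 3 fell in vehicle mice, where 10.1% rose and 10.2% fell. Nrcam, an adhesion molecule of the axon initial segment, rose with age in the IP by 0.82 in DHT mice and 0.95 in vehicle mice (edgeR adjusted p = 0.0466 and 0.0418), and in the supernatant by 0.38 in DHT mice and 0.64 in vehicle mice (0.00578 and 5.64e-05). Unc80, a subunit of the sodium leak channel complex, was higher in adult DHT IP by 0.83 (edgeR adjusted p = 0.0158). Pex5l rose with age in the supernatant of both, by 0.60 in DHT mice and 0.41 in vehicle mice (edgeR adjusted p = 0.000843 and 0.019). Nfasc, an adhesion molecule of the axon initial segment and node, fell with age in the supernatant of both, by 0.33 in DHT mice and 0.31 in vehicle mice (edgeR adjusted p = 0.025 and 0.0426), and Stac3, an adaptor of the skeletal muscle calcium channel, and Stac2, of the same family, fell in vehicle mice by 1.12 and 0.33 (edgeR adjusted p = 0.0295 and 0.0304).

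Some members share exonic sequence with a gene on the opposite strand, and the library kit does not mark strand, so their counts can hold reads of the partner. The overlap was 20% of the exonic length of Cacna1s, 17.1% of Hcn3 (with Pklr), 16% of Cacnb4 and at most 5.86% with any 1 partner for 8 further members, among them Cacnb1 at 1.77% and Cacna2d2 at 1.03%. Values of Cacna1s, Hcn3 and Cacnb4 are uncertain for that reason.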

How the data were processed

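Expression was measured by RNA-seq of polyA RNA (SMARTer v4 Ultra Low) from immunoprecipitates and supernatants, per the labels' protocols. The authors deposited a table of expected counts, of which 98.49% of values are whole, and these were rounded to whole numbers. The submitters' processing notes name TopHat2 2.0.13, Bowtie2 2.2.1, HTSeq 0.6.1, Cuffdiff 2.1.1 and mm10, and do not say which tool made the counts. Tests used edgeR 4.0.16 quasi-likelihood fits (TMM, filterByExpr with a minimum count of 10 and a minimum total of 15, Benjamini-Hochberg over all genes, threshold 0.05): 1 fit of all 46 libraries with tagged ribosomes for fractions and 1 fit per fraction for DHT and age. The no-Cre pair entered no fit. Alternatives used DESeq2 1.42.0, limma 3.58.1 (R 4.3.3), other scalings, filters and left-out libraries. Exon lengths and positions came from GENCODE on mm10. Scripts were tested on simulated data. The rule gave statistics to at most 10 called members per comparison, smallest adjusted p first, to the HCN, T-type and main sodium genes for the IP, and to 2 to 4 genes per list. Values beyond it (further called members for the IP, and Cacna1a, Cacng4 and Cacnb2 for DHT, among others) were chosen after they were seen. Of the genes that match the symbol rule, 3 are not reported here. The members and lists were chosen with earlier results of these data known.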

Additional observations from a re-analysis of the deposited data

Results flagged for a closer look

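Single libraries stood apart in 13 of 120 groups of libraries examined over 15 members (10.8%), where chance flags about 5%, by a gap to the nearest library that was large against the group's range. Among HCN genes, Hcn2 was at 129 CPM in young DHT supernatant 3 (others 102 to 106) and at 78.0 CPM in adult vehicle supernatant 5 (others 134 to 155), and Hcn3 at 21.7 CPM in adult DHT supernatant 1 (others 26.6 to 29.2). Among sodium channel genes, Scn2b was at 37.1 CPM in young vehicle IP 6 (others 18.2 to 24.0) and at 115 CPM in young vehicle supernatant 6 (others 67.2 to 81.7). Scn1a was at 35.0 CPM in adult DHT supernatant 5 (others 42.3 to 44.9) and at 46.1 CPM in young vehicle supernatant 6 (others 24.4 to 32.3), and Scn3b at 63.6 CPM in young DHT supernatant 3 (others 51.3 to 55.8). Among calcium channel genes, Cacna1b was at 11.6 CPM in young vehicle IP 5 (others 3.57 to 5.85) and at 10.9 CPM in young DHT supernatant 1 (others 19.5 to 21.9). Cacna1i was at 31.1 CPM in adult DHT IP 3 (others 0.945 to 10.4), Cacna2d1 at 29.1 CPM in young vehicle IP 5 (others 4.70 to 13.02) and Cacnb1 at 38.5 CPM in young vehicle IP 6 (others 44.3 to 46.4).

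The age difference was unlike between IP and supernatant, by the interaction test, for Scn7a in vehicle mice (−7.18, edgeR adjusted p = 0.016). This fitted value rests on 3 counts in the adult vehicle IP and gives no bound, and the call was lost in limma-voom (0.135) and with a replicate block (0.0677).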

How the results depend on the processing

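Counts of members called are given here against the reported count, with the share of all tested genes called in either direction in brackets against the reported share. DESeq2 gave 1 instead of 0 for age in vehicle IP (7.23%, against 3.83%) and 2 instead of 1 for age in DHT IP (11.1%, against 7.12%). It gave 5 instead of 3 for age in DHT supernatant (23.6%, against 19.9%). For the fraction by age interaction in DHT mice it gave 1 instead of 0 (2.14%, against 0.882%). With limma-voom and sample weights 1 member passed for age in vehicle IP (6.06%, against 3.83%), and 0 instead of 1 the fraction by age interaction in vehicle mice (0.504%, against 1.04%). Fitted on the compared groups alone, IP against supernatant in adult DHT mice gave 4 instead of 8 (13.8%, against 21.5%). Age in vehicle IP then gave 1 instead of 0 (2.76%, against 3.83%) and age in vehicle supernatant 3 instead of 5 (19.2%, against 20.3%). A term for the last 10 sample numbers gave 0 for age in DHT supernatant (11.8%, against 19.9%).

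Leaving out 1 library at a time gave, for IP against supernatant, 12 to 17 members over the 4 conditions, 7 to 10 in adult DHT, 8 to 11 in adult vehicle, 6 to 8 in young DHT and 5 to 7 in young vehicle mice. For age it gave 1 to 2 in DHT IP, 0 in vehicle IP with any 1 library left out, 0 to 6 in DHT supernatant and 4 to 8 in vehicle supernatant (8 without young vehicle 6), and for the fraction by age interaction 0 to 1 in DHT mice and 1 in vehicle mice. The 2 for age in DHT IP came without young DHT 1 or adult DHT 1, 3 or 6. Every DHT and DHT by age count stayed at 0. Over the 4 conditions the Scn3a call was lost without 16 of 46 libraries and without the filter on low counts (adjusted p = 0.0598), and that of Cacng7 without supernatant young vehicle 4 or adult DHT 1.

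Replicate numbers are shared between fractions, and whether they pair them is not stated. Deviations from the group mean correlated above 0.1 in 17 of 23 same-numbered pairs of IP and supernatant (−0.07 to 0.40; 19 correlated best with their own number), and in 13 of 44 within a fraction. With a replicate block 19 members were lower and 0 higher in the IP, the Scn11a call being lost (0.29, adjusted p = 0.802), and 0 passed the fraction by age interaction in vehicle mice (0.63% of all genes, against 1.04%). This fit and limma-voom (also 19 lower and 0 higher) moved the median over all genes to −0.21 and −0.22, and split all calls 3530 higher to 5867 lower and 3642 to 6357, against 4065 to 3619. Library totals without TMM split the adult vehicle calls 1606 higher to 2249 lower, against 2132 to 1870, the adult against young calls in vehicle IP 236 to 314, against 324 to 284, and the fraction by age calls in vehicle mice 27 to 161, against 44 to 129.

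Small log2 differences between IP and supernatant changed sign. Scn2a1 was −0.00135 with DESeq2, −0.00136 with RLE size factors, −0.0407 with library totals, −0.0466 with limma-voom and −0.0197 with the replicate block, and −0.0620 to 0.0388 without single libraries. Scn9a was −0.11 with limma-voom, −0.0374 with the replicate block and −0.0727 to 0.15 without single libraries. Cacna1i was −0.24, −0.0866 and −0.0705 to 0.20 in the same order, and Scn11a was −0.22 with limma-voom. The cause was not tested for any of these changes. Scn7a and Scn10a had few counts, spread unevenly over the IP libraries, at 0 to 143 and 0 to 65 counts in single libraries.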
